A study of Mus musculus with 42 samples.

Results

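The genes for the subunits of the mitochondrial oxidative phosphorylation complexes were followed in RNA-seq of mouse embryos between the early 2-cell and the 4-cell stage. They were taken by symbol, as all rows that start with Nduf, Uqcr, Atp5 or Cox4 to Cox8, or that are a succinate dehydrogenase gene from Sdha to Sdhd, leaving out 4 symbols marked -ps. The rule found 56 of 15737 genes. Of these, 22 belong to complex I, 5 are assembly factors of complex I with Ndufaf symbols, 3 belong to complex II, 5 to complex III, 12 to complex IV and 9 to complex V. Ndufa4, named for complex I, was counted with complex IV, where it is now placed. The rows used here hold genes of chromosomes 1 to 11, so that the 56 genes are 58.3% of the 96 symbols of this rule in the GENCODE M21 annotation, and Sdha and the Cox8 genes are among those not analysed here.

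In oxidative phosphorylation, complex I takes electrons from NADH and complex II takes them from succinate, and both pass them through complex III and cytochrome c to complex IV, which hands them to oxygen. Complexes I, III and IV pump protons across the inner mitochondrial membrane, and complex V, the ATP synthase, lets the protons flow back to make ATP. Complex I returns NADH to NAD+, the molecule whose synthesis was blocked in this study. Cleavage-stage embryos use mitochondria inherited from the egg, and some complex IV subunits exist as a widespread form and as a form of heart, muscle, lung or testis.

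Embryos came from ICR mice of wild-type genotype. Early 2-cell embryos were collected at 34 h after hCG, late 2-cell embryos at 48 h and 4-cell embryos at 58 h, hCG being the hormone given to bring on ovulation. FK866 blocks NAMPT, the enzyme that makes NMN for the salvage synthesis of NAD+, and was given to zygotes in culture at 0.01 µM, alone or with 10 µM NMN, for collection at the late 2-cell and 4-cell stages. The 2 other late 2-cell groups had 10 nM trichostatin A (TSA), which blocks histone deacetylases, or a knockdown of Sirt1, an NAD+-dependent deacetylase, made by injecting zygotes with siRNA and with the Trim21 protein degradation system. TSA was given from the early 2-cell stage on. Inhibitors were dissolved in DMSO, which their controls also received. For the knockdown, the paper's negative control was zygotes injected with scrambled siRNA and Trim21 mRNA. The labels hold a single late 2-cell control group, used here for FK866, TSA and Sirt1, and do not say whether it was injected. Each library was made from 3 pooled embryos, with 2 libraries in each of the 9 groups.

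The deposited table gives every group a single FPKM column and holds no library on its own. Values multiplied by exon length fell on whole reads, from which 7 columns could be separated into 2 libraries each, while 4-cell FK866 and FK866+NMN, as headed, held 1 library each. This gave 16 libraries of 3169677 to 10003481 reads, in which 5504 to 10197 genes had a read, with the fewest in library A of late 2-cell FK866+NMN. All 56 members could be separated in all 16 libraries. Within a column, A stands for the deeper library and B for the shallower, and neither carries a replicate number. Nothing in the labels says that the 2 libraries of a group came from separate matings, so that the spread between them may be technical.

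Headers and the tables published with the study give different groups for 5 of the 9 columns. The tables name the column headed late 2-cell TSA as 4-cell control, with 47 of 47 compared values equal, the column headed late 2-cell Sirt1 as 4-cell FK866, with 84 of 84 equal, and the column headed 4-cell control as 4-cell FK866+NMN, with 80 of 80 equal. The signs of the published changes match late 2-cell TSA to the column headed 4-cell FK866, in 1203 of 1203 genes, and match late 2-cell Sirt1 best to the column headed 4-cell FK866+NMN, in 773 of 821 genes, which does not settle that last column. Sirt1 itself was at 52.7 FPKM per library in the column headed Sirt1 and at 76.4 in the late 2-cell control, against 11.3 in the column that the tables point to. The libraries headed Sirt1 overlapped those of the control, at 32.4 and 73.1 against 86.6 and 66.2. The gene was also low in the column headed 4-cell FK866, at 7.61, and in early 2-cell embryos, at 9.84. A low Sirt1 level is thus not particular to the column that the tables point to. The 7 markers of the 2-cell embryo, such as the Zscan4 genes and Zfp352, summed to 163 FPKM per library in early 2-cell embryos and to 334 to 459 in the late 2-cell control, FK866 and FK866+NMN columns. They summed to 18.2, 30.2 and 46.9 in the columns headed late 2-cell TSA, late 2-cell Sirt1 and 4-cell control, and to 261 and 352 in those headed 4-cell FK866 and FK866+NMN. The egg and cleavage embryo markers summed to 1650 to 4865 FPKM in every column. Dppa3 made up most of that sum in the columns headed late 2-cell TSA, late 2-cell Sirt1 and 4-cell control, at 3654, 3256 and 3631. Bcl2l10 was at 919 in the late 2-cell control and at 0.422, 13.8 and 28.4 in these columns. Nlrp14 was at 144 against 2.66, 18.0 and 26.6, while Zp3 was at 54.9 against 30.1, 40.8 and 51.4. The 6 cumulus cell markers summed to at most 8.39 FPKM. The 4 haemoglobin genes summed to at most 27.8 except in the column headed 4-cell FK866, where they reached 212. Of 5 sperm markers 0 were among the rows, and they were not analysed. Columns are called below by their headers, with the name from the tables beside them where these differ.

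Promoter sequences are shown for 4 of the members named in the results, each running from 250 bases before to 50 bases after the RefSeq start site on GRCm38.p6. Capitals mark the consensus motif of nuclear respiratory factor 1, which is the same on both strands, or the motif CCGGAAG of ETS factors such as GABP, read on both strands. Both factors are known regulators of genes for mitochondrial proteins, and the motifs were chosen after the data were seen.
Cox6a1 (complex IV, chr5:115348909-115349208, minus strand): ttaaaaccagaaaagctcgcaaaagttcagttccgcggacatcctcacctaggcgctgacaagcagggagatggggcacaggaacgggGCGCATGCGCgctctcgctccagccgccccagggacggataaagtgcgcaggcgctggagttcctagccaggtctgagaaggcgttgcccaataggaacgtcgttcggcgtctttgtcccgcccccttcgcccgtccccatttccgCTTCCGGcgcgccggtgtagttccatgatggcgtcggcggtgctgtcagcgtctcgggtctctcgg
Atp5k (complex V, chr5:108434350-108434649, minus strand): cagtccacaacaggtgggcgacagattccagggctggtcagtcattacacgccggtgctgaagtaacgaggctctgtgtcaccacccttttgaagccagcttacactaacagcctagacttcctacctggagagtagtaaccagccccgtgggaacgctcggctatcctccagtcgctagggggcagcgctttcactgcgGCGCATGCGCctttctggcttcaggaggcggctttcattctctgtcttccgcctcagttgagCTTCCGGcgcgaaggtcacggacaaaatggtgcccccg
Cox6b1 (complex IV, chr7:30626065-30626364, minus strand): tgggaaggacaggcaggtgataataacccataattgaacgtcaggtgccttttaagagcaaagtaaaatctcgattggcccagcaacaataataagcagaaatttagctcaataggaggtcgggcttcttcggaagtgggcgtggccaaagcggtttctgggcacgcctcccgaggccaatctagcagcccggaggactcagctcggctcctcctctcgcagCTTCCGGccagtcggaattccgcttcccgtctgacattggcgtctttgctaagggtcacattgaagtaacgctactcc
Cox6b2 (complex IV, chr7:4753045-4753344, minus strand): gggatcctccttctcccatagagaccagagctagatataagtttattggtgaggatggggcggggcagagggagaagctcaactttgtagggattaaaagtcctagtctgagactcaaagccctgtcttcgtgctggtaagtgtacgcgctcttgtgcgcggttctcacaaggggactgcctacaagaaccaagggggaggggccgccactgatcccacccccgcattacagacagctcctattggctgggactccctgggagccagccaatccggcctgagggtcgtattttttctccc
Of the 46 members with a promoter in the RefSeq set, 5 (10.9%) held the first motif, against 0.977% of 27025 promoters, and 13 (28.3%) held the second, against 9.12%. Cox6a1 and Atp5k held both motifs, Cox6b1 held the ETS motif only and Cox6b2 held neither in this window. Of other members named below, Atp5c1, Ndufa4 and Ndufc2 held neither motif, and Ndufaf4 and Uqcrc1 held the first only. Whether the motifs go with the level of a member was not tested.

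Complex IV and complex V genes made up the larger part of the members' RNA. Cox6a1, a widespread complex IV subunit, was the highest member, with a mean of 215 FPKM over the 9 columns. Atp5c1 and Atp5b, the gamma and beta subunits of the ATP synthase, followed with means of 120.4 and 118 FPKM, and Cox7a2 and Cox6b1 of complex IV with 116 and 101. At the other end, Ndufa4l2, Ndufaf3 and Cox4i2 had means of 0.0765, 0.385 and 1.5 FPKM. Ndufa4l2 had reads in 1 library and Ndufaf3 in 3 of the 16, and both are best read as barely detected at this depth.

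The summed level of all 56 members was 1201 and 1383 FPKM in the early 2-cell libraries and 1529 and 1517 FPKM in the late 2-cell control libraries. It was 2830.3 and 2426 in the column headed late 2-cell TSA, 2361 and 2357 in the column headed late 2-cell Sirt1 and 1953 and 1844 in the column headed 4-cell control. These 3 columns, which the tables name as the 3 groups at the 4-cell stage, stood above all other libraries. The FK866 libraries were at 1368 and 1082, the FK866+NMN libraries at 1639 and 783, and the single libraries headed 4-cell FK866 and FK866+NMN at 1606 and 1202. Bulk libraries of 3 embryos do not tell less RNA per cell from fewer cells that carry it.

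**Figure D1:**
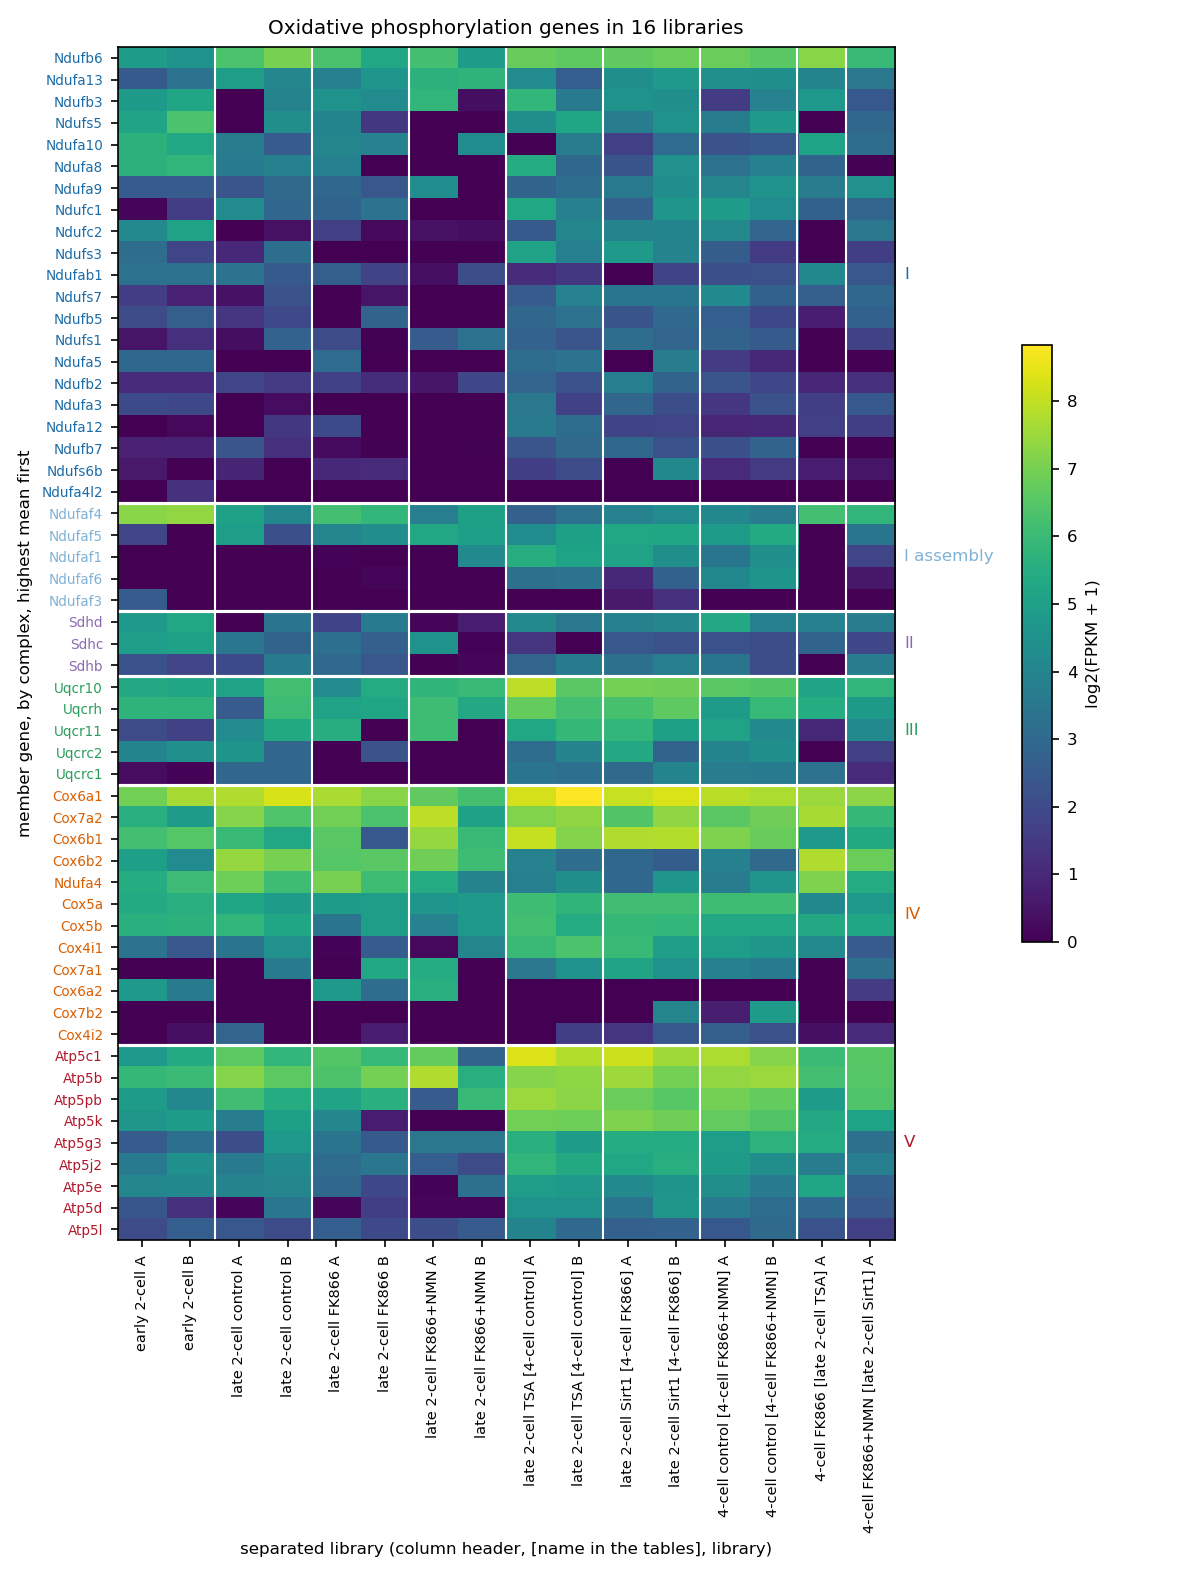
Level of 55 members (rows, by complex, highest mean first) in each of the 16 separated libraries (columns, by header, with the name from the tables in brackets), as log2(FPKM + 1). The rows of Atp5c1, Atp5k and Atp5pb of complex V are brightest in the 6 libraries of the columns headed late 2-cell TSA, late 2-cell Sirt1 and 4-cell control, while the Cox6b2 row is darkest there.

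The complexes differed in course. Complex V made up 14.6% of the members' summed FPKM in both early 2-cell libraries and 28.2% to 35.8% in the 6 libraries of these 3 columns, a description of shares without a test, and was at 18.1% to 27.6% in the other 8. In FPKM, its 9 genes summed to 175 and 201 in early 2-cell libraries, to 359 and 298 in the late 2-cell control, and to 617 to 949 in the 6 libraries, with no overlap. The complex II sum went the other way, with its 3 genes at 59.3 and 71.7 FPKM in early 2-cell libraries and at 0.748 to 52.2 in all others. Nearly all of that early level was Sdhc and Sdhd. Sdhb was at 3.72 and 2.60 FPKM early and at 0 to 12.5 in the others. Complex I assembly factors were also highest early, at 161 and 167 FPKM against at most 96.5 later, and nearly all of that early level was Ndufaf4. The 22 complex I genes ranged from 139 to 422 FPKM and the 12 complex IV genes from 315 to 990.2, with early and later libraries overlapping in both.

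**Figure D2:**
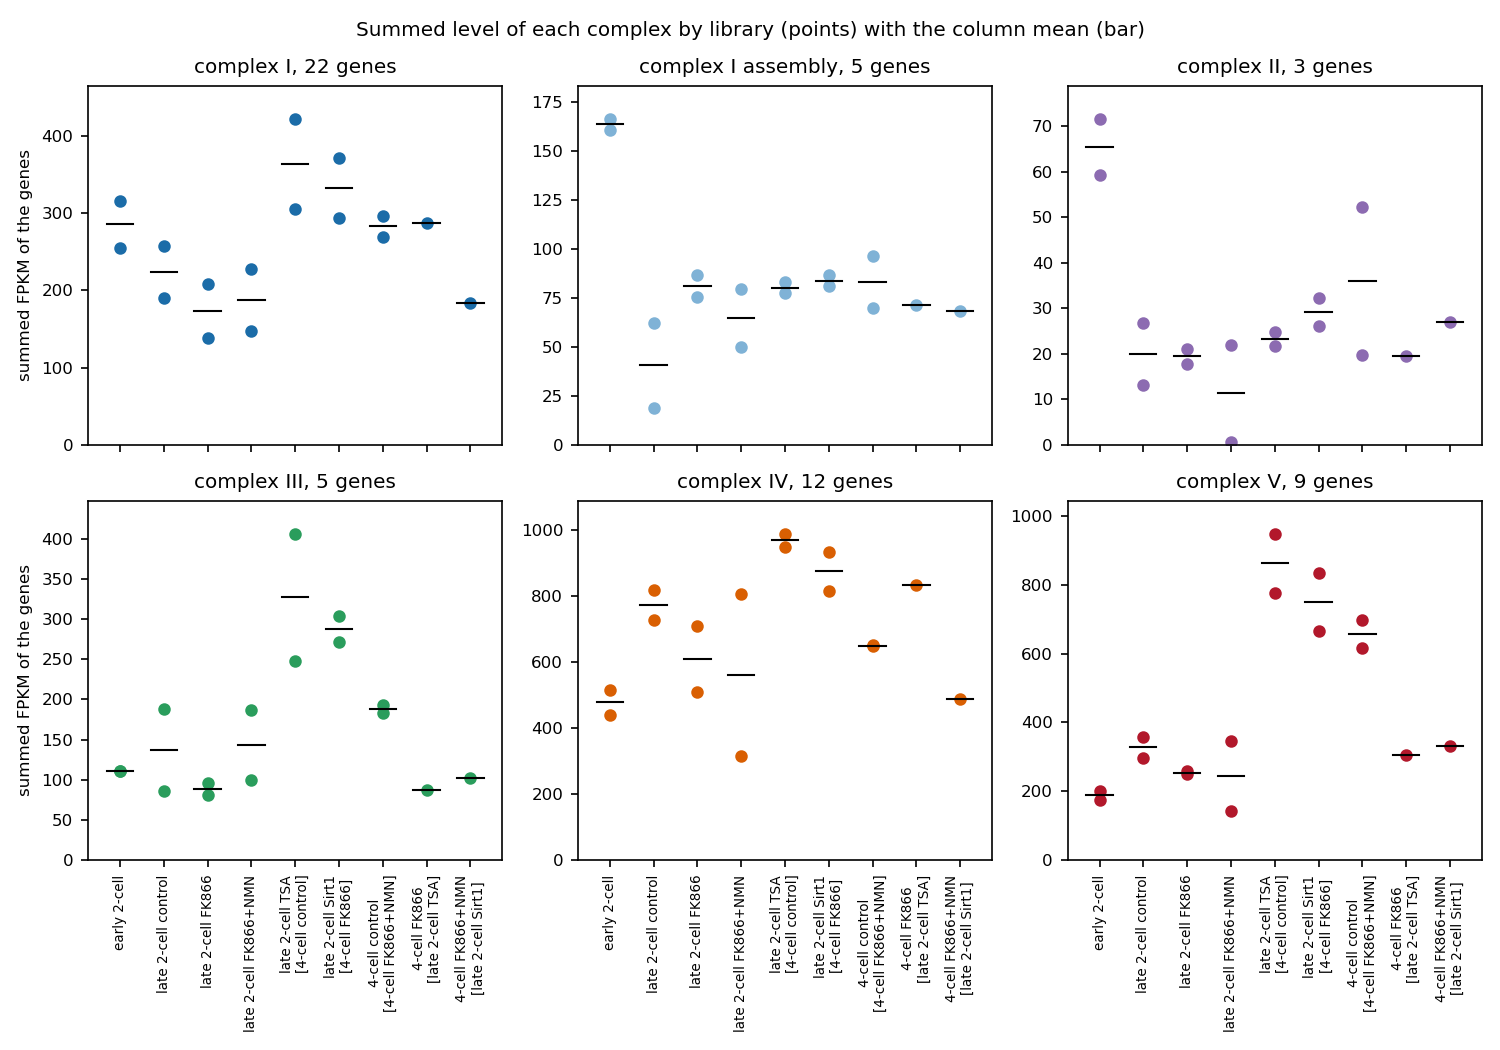
Summed FPKM of the genes of each complex (vertical axes, each from 0) in each library (points), by column header with the name from the tables in brackets, with the mean of the column as a bar. The complex V panel shows 6 libraries between 617 and 949 FPKM and the other 10 at or below 359, and the complex II panel shows the early 2-cell libraries at 59.3 and 71.7.

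Between early and late 2-cell control embryos, members moved both ways. Of 50 members with at least 1 FPKM in either column, 16 were higher by over 2-fold and 12 lower by as much at the late 2-cell stage, against 32.2% and 31.7% of all 9514 genes, so that the share was near the background. With both libraries of one stage beyond both of the other, 13 were higher and 11 lower, against 24.5% and 27% of genes. The median log2 fold change of FPKM per library + 1, the scale of all fold changes here, was 0.26 for the members and -0.003 for all genes. Without library B of the late 2-cell control the members' median was -0.15. In limma on the separated libraries, 5 members rose and 3 fell at an adjusted p under 0.05 over 10370 genes, where 8.85% of genes rose and 7.9% fell.

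Among the members that rose were Cox6b2, the testis form of complex IV subunit 6b, Uqcrc1, a core protein of complex III, and Ndufb6 and Ndufc1 of complex I. Cox6b2 was at 30.4 and 18.1 FPKM in the early libraries and at 169.9 and 130.0 in the late control libraries, and it rose by 2.61 on the log2 scale (SE 0.47, adjusted p = 0.00394, limma). Uqcrc1 was at 0.214 and 0.0521 FPKM early and at 6.6 and 6.62 late (2.75, SE 0.53, adjusted p = 0.00541). Both genes were thus low in each early library and clearly higher in each late one. Ndufb6 rose by 1.98 (SE 0.49, adjusted p = 0.0189) and Ndufc1 by 2.71 (SE 0.82, adjusted p = 0.0459), and both had both late libraries above both early ones.

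Ndufaf4, Ndufc2 and Sdhd fell. Ndufaf4, an assembly factor of complex I, was at 153 and 167 FPKM early and at 32.2 and 15.6 late (-2.78, SE 0.51, adjusted p = 0.00443). Ndufc2, a small membrane subunit of complex I, was at 16.7 and 32.8 FPKM early and at 0 and 0.318 late (-4.41, SE 0.75, adjusted p = 0.00284). Sdhd, a membrane anchor of complex II, was at 26.1 and 37.3 early and at 0 and 9.56 late (-3.31, SE 1.02, adjusted p = 0.0497), and its partner Sdhc at 29.5 and 31.8 against 10.1 and 6.06 (-1.83, SE 1.13, adjusted p = 0.31). Early libraries were the higher ones for all 4, without overlap. Of the 8 calls, Ndufaf4, Cox6b2, Ndufc2 and Uqcrc1 stayed past the threshold in all 14 refits that left out 1 library, and the other 4 were lost in some.

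Among the leading members, Atp5c1 was at 24.9 and 41 FPKM early and 95.4 and 56.4 late (1.17, SE 0.95, adjusted p = 0.451), and Cox7a2 at 46.6 and 28.5 against 147 and 84.2 (1.59, SE 0.77, adjusted p = 0.201). Cox6b1 had both early libraries higher, at 71.6 and 88.8 against 61.5 and 38.7 FPKM (-0.70, SE 1.03, adjusted p = 0.716). These leading members did not overlap between the stages, and none passed the test. Cox6a2, the heart and muscle form of subunit 6a, was at 25.8 and 11.1 FPKM early and had no read in either late control library (adjusted p = 0.0645). There 3 reads over the group would be 0.413 FPKM, so that by counting error alone it was at least 44.7-fold higher early. Such limits, here and below, do not cover differences between libraries of one group. Uqcr11, for example, had 255 reads in library A of late 2-cell FK866 and 0 in library B.

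FK866 at the late 2-cell stage was compared with the late 2-cell control to see what blocking NAD+ salvage did to these genes. No member passed the test. Of 50 members, 5 were past 2-fold upwards and 11 downwards in the FK866 column, against 18.1% and 20% of 9022 genes, and without overlap of the libraries 3 were higher and 7 lower, against 9.43% and 10.9%. The count was 17 lower without library A of FK866 and 10 higher without library B of the control. The median log2 fold change was -0.25 for the members and -0.06 for all genes. In limma 0 members passed at an adjusted p under 0.05, 9 of 55 were under an unadjusted p of 0.05, and 0.26% and 0.116% of all genes rose and fell. The all-gene count shows that few genes of any kind passed in this comparison.

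The lower members included complex III and IV subunits. Uqcrc1 was at 6.6 and 6.62 FPKM in the control libraries and had no read in either FK866 library. By counting error alone it was at least 156-fold higher in the control. Its adjusted p was 0.0532 in limma, just short of the threshold. Uqcrc2, the other core protein of complex III, was at 23 and 6.49 against 0 and 3.76. Cox4i1, the widespread form of complex IV subunit 4, was at 9.49 and 21.2 in the control libraries and at 0.072 and 5 with FK866 (-2.59, SE 1.14, adjusted p = 0.571). All 3 were lower in both FK866 libraries. Ndufs3 had no read in either FK866 library and was at least 56.0-fold higher in the control, and Ndufb7, Atp5e and Cox5b made up the rest of the 7, with log2 fold changes of -1.73, -1.43 and -1.20.

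Ndufaf4, Cox6a2 and Ndufb3 were the 3 higher members. Ndufaf4 was at 32.2 and 15.6 FPKM in the control and at 71.7 and 56.3 with FK866 (1.46, SE 0.51, adjusted p = 0.383), and Ndufb3 at 0 and 14.5 against 22.4 and 18.2. Cox6a2 had no read in the control and was at 26.4 and 7.96 FPKM with FK866, at least 41.6-fold higher. Cox6b2 was lower in both FK866 libraries, at 90.5 and 93.6 against 169.9 and 130.0 (-0.69, SE 0.47, adjusted p = 0.704). By the median, complex III was at -0.76 over 5 genes and complex V at -0.66 over 9, while complexes I, II and IV were at -0.24, -0.21 and -0.19.

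FK866+NMN was compared with FK866 at the late 2-cell stage, the comparison that asks what adding back NMN did. Of 46 members, 5 were more than 2-fold higher and 14 lower with NMN, against 18.9% and 33.3% of 8605 genes, and without overlap 2 were higher and 9 lower, against 5.66% and 20.6%. The median was -0.17 for the members and -0.24 for all genes. The count was 23 lower without library A of FK866+NMN and 12 higher without library B. The members' median was -1.0 and -0.68 without library A or B of FK866+NMN, and 0.05 without library A of FK866. In limma 0 members passed the adjusted threshold and 8 were under an unadjusted p of 0.05, while 0.299% of all genes rose and 2.09% fell. Both FK866+NMN libraries had reads for 34 of the 56 members, the lowest of all libraries.

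Ndufs1 and Ndufa13 of complex I were the 2 higher members, Ndufs1, the largest core subunit, at 3.06 and 0.0304 FPKM with FK866 and 4.81 and 8.83 with NMN. Ndufaf4 was among the 9 lower ones, at 71.7 and 56.3 with FK866 and 12.6 and 31.6 with NMN (-1.62, SE 0.51, adjusted p = 0.144), next to 32.2 and 15.6 in the control. Its FK866+NMN libraries thus overlapped the control libraries. Cox6a1 was at 210.3 and 153 with FK866 and 100.4 and 73.2 with NMN (-1.06, SE 0.35, adjusted p = 0.16), and Ndufa4 at 128 and 66.7 against 42 and 14.5 (-1.86, SE 0.69, adjusted p = 0.217). Sdhb and Sdhd of complex II were at 0 and 0.0835 and at 0.0959 and 0.607 FPKM with NMN, below 7.18 and 4.29 and below 2.45 and 11.3 with FK866. In the control, Cox6a1 was at 216 and 311, Ndufa4 at 118 and 66.4 and Sdhb at 2.94 and 11.3 FPKM. Both FK866+NMN libraries were below both control libraries for these genes. For Sdhd, at 0 and 9.56 in the control, they overlapped. Atp5k, a membrane subunit of the ATP synthase, and Ndufs5, Ndufc1 and Ndufs6b, which completed the 9, had no read in either FK866+NMN library. The 2 FK866+NMN libraries differed widely in complex V, with Atp5c1 at 105 and 6.07, Atp5b at 216 and 46.7 and Atp5pb at 4.86 and 61.9 FPKM.

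**Figure D3:**
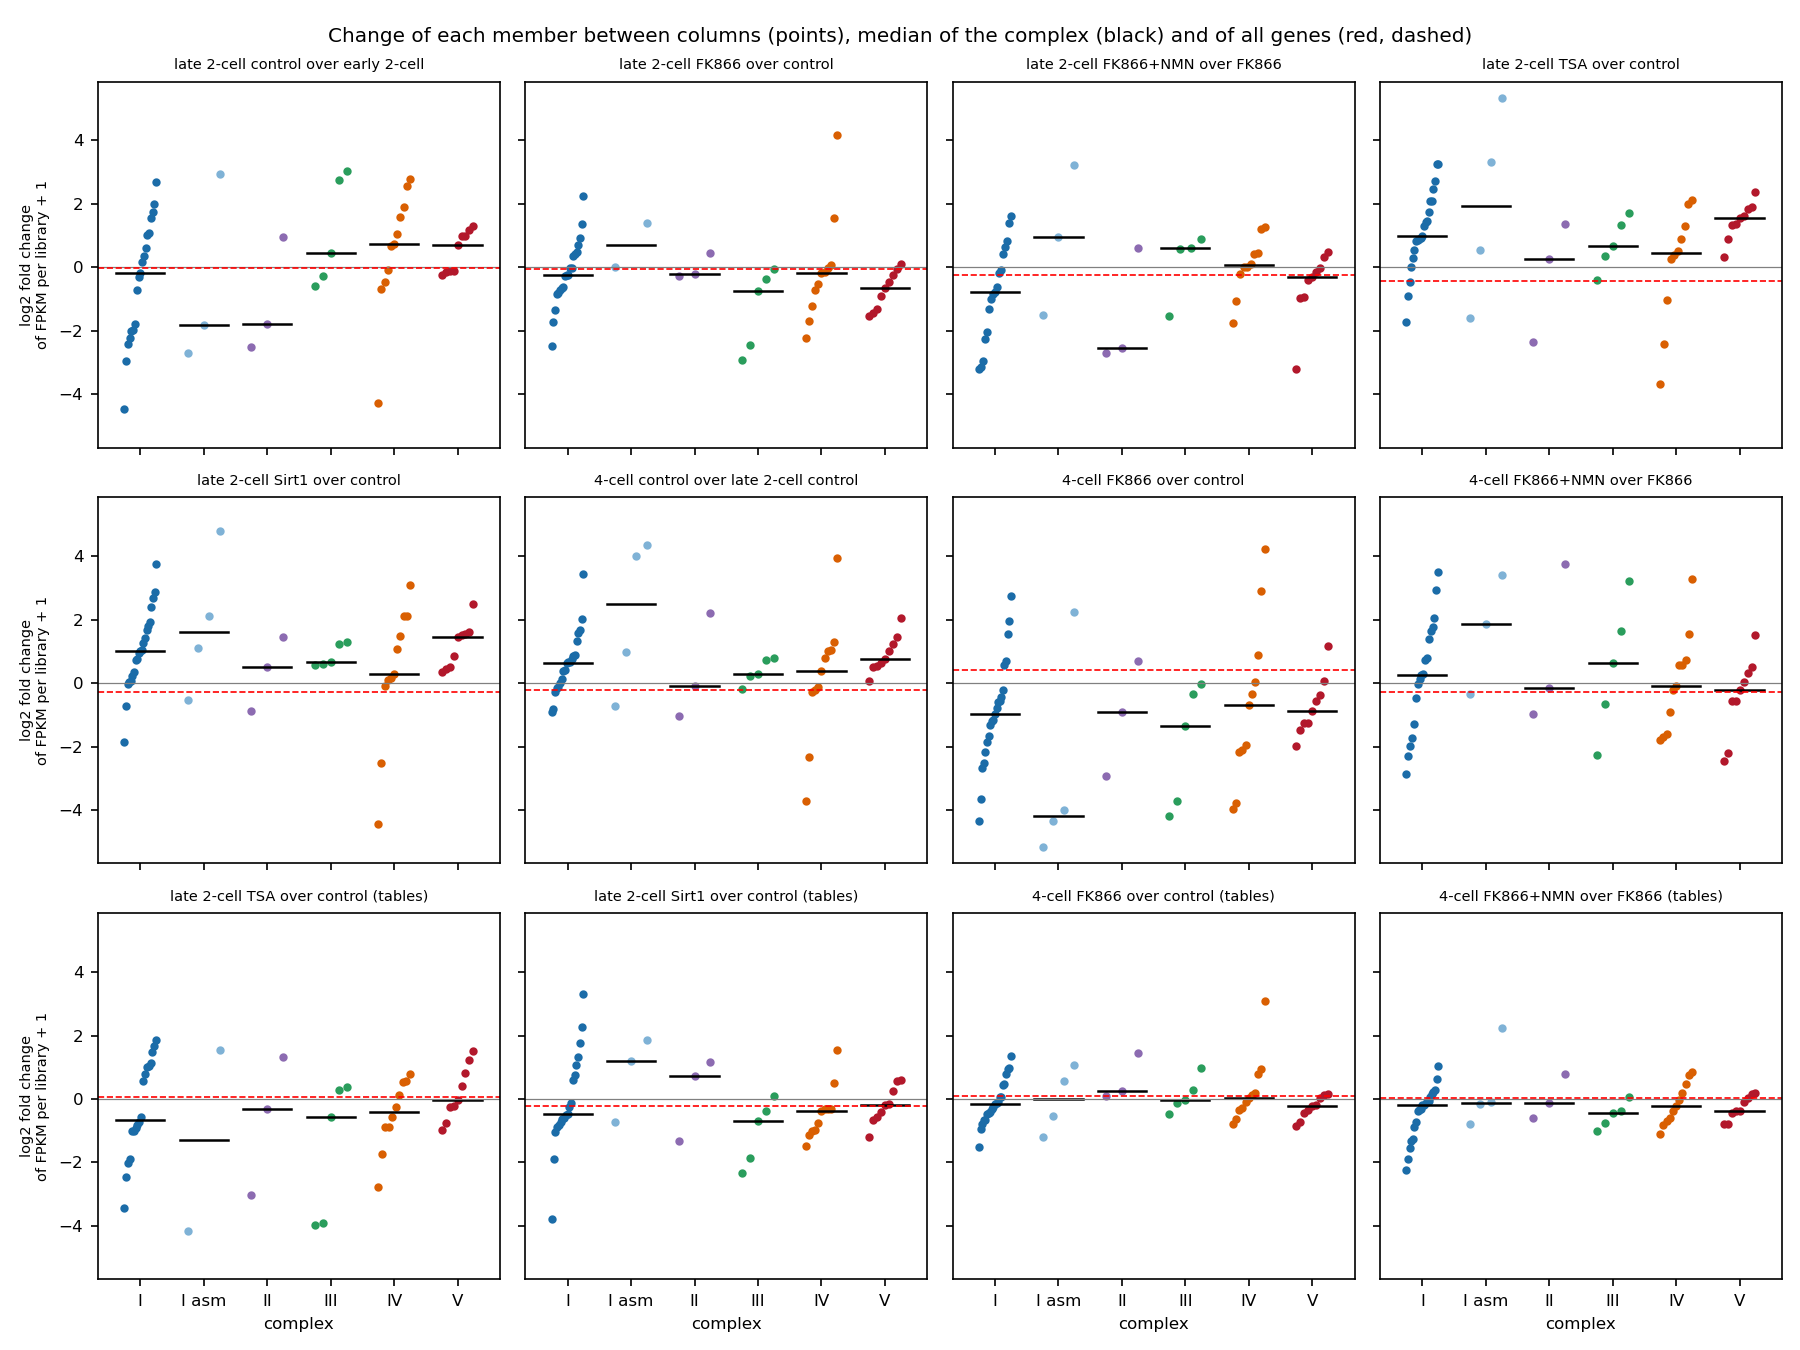
Log2 fold change of FPKM per library + 1 of each member with at least 1 FPKM in either column (points), by complex, for the 8 comparisons named by the headers and for 4 with the columns named by the tables, where the 4-cell over late 2-cell control comparison uses the columns of the TSA panel. Black bars are medians of a complex and the red dashed line is the median of all genes. All 9 complex V genes lie above 0 in the panels of TSA and Sirt1 over control and of 4-cell over late 2-cell control.

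The columns headed late 2-cell TSA, late 2-cell Sirt1 and 4-cell control were each set against the late 2-cell control, and in each more members were past 2-fold upwards than downwards. The 3 comparisons use the late 2-cell control column in common, so that they are not independent. ATP synthase genes were higher in all 3 columns, most complex I genes were higher, and Cox6b2 fell 13.7-fold, 25.4-fold and 14.1-fold. By the headers these are the effects of TSA, of Sirt1 knockdown and of development, and by the tables all 3 set a 4-cell group against late 2-cell control embryos.

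In the column headed late 2-cell TSA, named 4-cell control by the tables, 25 of 52 members were more than 2-fold higher than in the late 2-cell control and 6 lower, against 23.2% and 41.3% of 8648 genes. With no overlap between libraries 23 were higher and 5 lower, against 17.8% and 28%. The median was 0.96 for the members and -0.44 for all genes. In limma 6 members rose and 2 fell, against 4.26% and 8.4% of genes. In the column headed late 2-cell Sirt1, named 4-cell FK866 by the tables, 27 of 53 members were higher and 3 lower, against 24.3% and 36.6% of 8779 genes. There 23 were higher and 3 lower with no overlap, against 18.7% and 25.1%, and 6 and 5 were lower past 2-fold without library B of the Sirt1 column or of the control. Medians were 1.01 and -0.28, and limma called 2 members up and 2 down, against 3.46% and 6.31% of genes. In the column headed 4-cell control, named 4-cell FK866+NMN by the tables, 15 of 52 were higher and 3 lower, against 24.2% and 33.8% of 8868 genes. The same numbers, 15 and 3, had no overlap, against 19.8% and 23.2%, and 6 were lower past 2-fold without library B of the control. Medians were 0.65 and -0.21, and limma called 2 up and 1 down, against 2.65% and 4.71%.

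Of the 5 complexes, complex V had the highest median in each of the 3 columns. All 9 of its genes were higher in each of the 3 columns, with medians of 1.57, 1.44 and 0.77, and 7, 5 and 4 of them were more than 2-fold higher. Atp5c1 was at 95.4 and 56.4 FPKM in the late 2-cell control and at 328 and 222, 283 and 189, and 211 and 149 in the 3 columns (1.86, SE 0.95, adjusted p = 0.266 for the first). Atp5k was at 12.4 and 31.6 in the control and at 122 and 116, 139 and 120.4, and 104 and 85.3 (2.52, SE 0.87, adjusted p = 0.0908). Neither gene overlapped the control in any of the 6 libraries, and neither passed the test. Atp5j2, a small membrane subunit, was the 1 complex V gene that did, from 11.6 and 17.8 FPKM to 54.8 and 40.6 in the column headed TSA (1.65, SE 0.47, adjusted p = 0.0453). Atp5b, the catalytic beta subunit, was at 148 and 95.7 in the control and at 148 and 159, 187 and 124, and 167 and 179, with log2 fold changes of 0.33, 0.35 and 0.50. It was thus already high in the late 2-cell control, and moved least of the 9 in the columns headed TSA and Sirt1.

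Complex I subunits were mostly higher as well, 18 of 21, 18 of 21 and 14 of 20 above 0, with medians of 1.00, 1.01 and 0.64. Ndufc2 rose in each column, from 0 and 0.318 FPKM in the control to 4.64 and 15.6, 14.5 and 14.6, and 16.7 and 6.28, with limma log2 changes of 3.08, 3.76 and 3.31 (SE 0.75, adjusted p = 0.0231, 0.0122 and 0.0258). This gene, which fell between early and late 2-cell embryos, was thus again at or below its early level of 16.7 and 32.8 FPKM in these libraries. Ndufa3 and Ndufa12 rose in the column headed TSA (2.46, SE 0.67, adjusted p = 0.036, and 2.63, SE 0.70, adjusted p = 0.0341). The core subunits Ndufs3 and Ndufs7 did not pass, at 5.04 and 4.52 times their control level in the column headed TSA (adjusted p = 0.102 and 0.172). Of the assembly factors, Ndufaf1 and Ndufaf6 had no read in the late 2-cell control libraries. Ndufaf1 was at 44.6 and 34, 33 and 20.0, and 9.73 and 20.2 FPKM in the 3 columns, at least 210.2-fold, 142-fold and 80.1-fold higher than 3 reads over the control group, and passed the test in the first 2 (adjusted p = 0.00967 and 0.0215). Ndufaf6 was at 8.62 and 9.18, 0.971 and 5.62, and 16.4 and 22.5, at least 39.2-fold, 14.5-fold and 85.6-fold higher, and passed in the columns headed TSA and 4-cell control (adjusted p = 0.006 and 0.00441).

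Complex IV was split. Its members had medians of 0.47, 0.31 and 0.37, with Cox4i1 and Cox6b1 higher and Cox6b2 and Ndufa4 lower. Cox6b2 was at 169.9 and 130.0 FPKM in the control and at 14 and 7.88, 6.68 and 5.13, and 13.8 and 7.39 in the 3 columns, and fell in each (log2 changes of -3.70, -4.45 and -3.75, SE 0.47, adjusted p = 0.00111, 0.000937 and 0.00302). Ndufa4 was at 118 and 66.4 in the control and at 13 and 20.3, 6.95 and 23.8, and 12 and 23.1 (-2.38, -2.67 and -2.34, SE 0.69, adjusted p = 0.0473, 0.0352 and 0.0681). All 6 libraries were below both control libraries for both genes. Cox6b1, at 61.5 and 38.7 in the control, was at 265 and 144, 219 and 224, and 138 and 109.8, which is 4.08, 4.43 and 2.48 times the control level (adjusted p = 0.275, 0.246 and 0.512). Cox5a, a nuclear-encoded subunit of the complex, was at 35.2 and 28.1 in the control and at 53.7 to 68.5 in the 6 libraries, with adjusted p = 0.101, 0.0589 and 0.0768.

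Of these calls, the fall of Cox6b2 stayed past the threshold in all 14 refits without 1 library in each comparison, as did the rise of Ndufaf6 in the columns headed TSA and 4-cell control, and every other member call of the 3 comparisons was lost in at least 1 refit. In complexes II and III, Sdhc was lower in the column headed TSA, at 1.57 and 0 against 10.1 and 6.06 FPKM (adjusted p = 0.209), and Uqcr10 of complex III was higher, at 245 and 94.7 against 33.3 and 69.5.

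Cox6b1 and Cox6b2 moved in opposite directions in some comparisons. These included early against late 2-cell control, and late 2-cell control against the columns headed late 2-cell TSA, late 2-cell Sirt1 and 4-cell control. They also included, by the headers, 4-cell FK866 against control. Cox6b1 was at 26.5 FPKM in that single FK866 library against 138 and 109.8, and Cox6b2 at 218 against 13.8 and 7.39. With FK866 at the late 2-cell stage they did not, as Cox6b2 was lower in both libraries while those of Cox6b1 lay on either side of the control. Cox6b1 was at 94.5 and 4.34 FPKM there, against 61.5 and 38.7. Both encode subunit 6b of complex IV, Cox6b1 in most tissues and Cox6b2 in testis, and both lie on chromosome 7, at 30616861 to 30626151 and at 4751792 to 4753094 on GRCm38, both on the minus strand. Cox6b2 made up 29.8% and 16.9% of the summed FPKM of the pair in early 2-cell libraries and 73.4% and 77.1% in late 2-cell control libraries. It was 48.9% and 95.6% with FK866 and 41.3% and 51.8% with FK866+NMN. In the columns headed late 2-cell TSA, late 2-cell Sirt1 and 4-cell control it was 2.24% to 9.1%, below every other library, and in the single libraries headed 4-cell FK866 and FK866+NMN it was 89.1% and 74.3%. By the headers the share was thus low in 4-cell control embryos and high with FK866, and by the tables it was low in all 3 groups at the 4-cell stage and 41.3% or more in all 5 late 2-cell groups.

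The other tissue forms were low or scattered. Cox6a2 was at 11.1 to 25.8 FPKM early, at 26.4 and 7.96 with FK866, at 46.4 and 0 with FK866+NMN, at 1.92 in the column headed 4-cell FK866+NMN and without a read elsewhere. Cox7a1, the heart and muscle form of subunit 7a, ranged from 0 to 41.7 FPKM and Cox7b2 from 0 to 28.2, each at 0 in some libraries of a column and not in the other. Cox4i2, the lung form of subunit 4, reached at most 6.42. Libraries of one column disagreed so much for Cox7a1, Cox7b2 and Cox4i2 that no difference between groups was read from them.

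**Figure D4:**
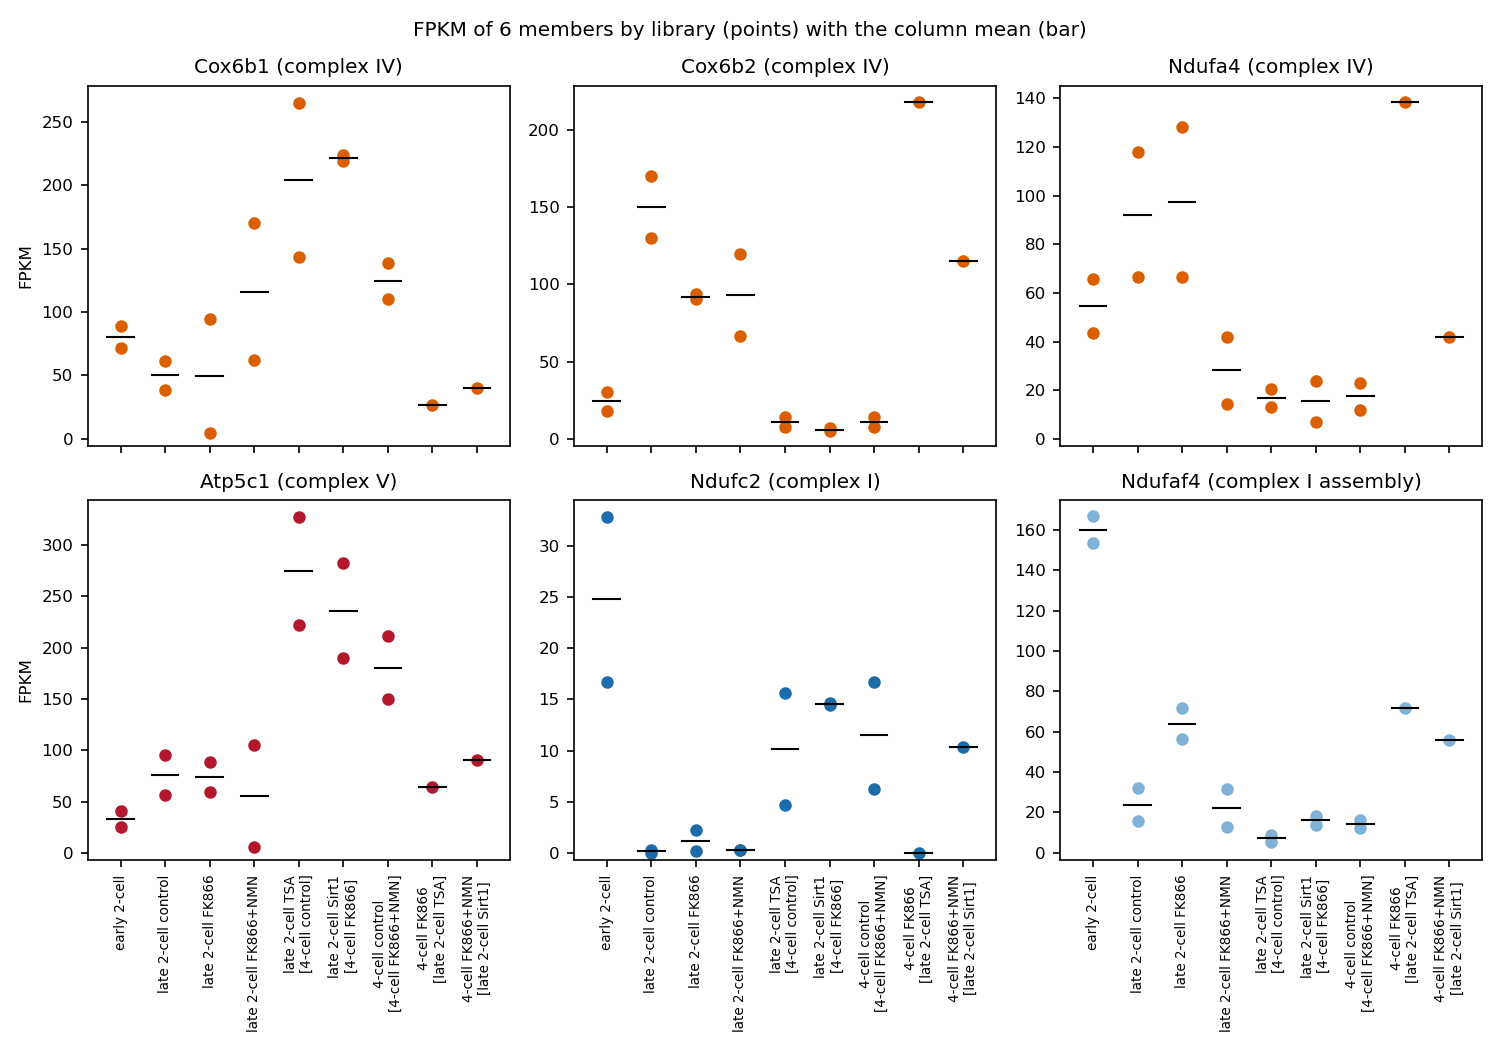
FPKM of Cox6b1, Cox6b2, Ndufa4, Atp5c1, Ndufc2 and Ndufaf4 (vertical axes) in each library (points), by column header with the name from the tables in brackets, with the mean of the column as a bar. Cox6b2 is at 5.13 to 14 FPKM in the 6 libraries of the columns headed late 2-cell TSA, late 2-cell Sirt1 and 4-cell control, where Atp5c1 is at 149 to 328, and Ndufaf4 is highest in the early 2-cell libraries.

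At the 4-cell stage, FK866 was compared with the control by the headers and then by the tables, and the results differ. By the headers, with 1 FK866 library assumed to vary like the others, 7 of 53 members were more than 2-fold higher and 26 lower, against 41.8% and 32.9% of 9368 genes, with no overlap of libraries for any of the 33, against 41.5% and 29.1% of genes. The median was -0.98 for the members and 0.42 for all genes. In limma 3 members rose and 7 fell, against 12% and 8.12% of genes. The blood markers reached 212 FPKM in this library, and their part in the result was not tested.

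Cox6b2, Ndufa4 and Ndufaf4 rose by the headers. Cox6b2 was at 218 FPKM in the library headed FK866 against 13.8 and 7.39 (4.29, SE 0.58, adjusted p = 0.00112), Ndufa4 at 139 against 12 and 23.1 (2.98, SE 0.84, adjusted p = 0.0322) and Ndufaf4 at 71.6 against 16.3 and 12.3 (2.26, SE 0.63, adjusted p = 0.0302). The 7 that fell were Ndufaf5, Ndufaf6, Sdhb, Ndufc2, Uqcrc2, Ndufb7 and Cox5a. Cox5a, the only one of these with reads in that library, was at 16.6 against 66.5 and 67.2 FPKM (-1.95, SE 0.39, adjusted p = 0.00788). The other 6 reached 5.95 to 41.5 FPKM in the control libraries and had no read with FK866, Ndufaf5 at least 96.3-fold and Uqcrc2 at least 69.2-fold higher in the control. Ndufaf5, Ndufaf6, Cox6b2 and Cox5a stayed past the threshold in all 14 refits, none of which left out the single FK866 library that the calls rest on, so that their dependence on it was not tested.

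By the tables, where 4-cell FK866 is the column headed late 2-cell Sirt1 and 4-cell control the column headed late 2-cell TSA, fewer members were past 2-fold. There 4 of 53 were more than 2-fold higher and 2 lower, against 21.2% and 13.4% of 7420 genes, and 2 and 2 without overlap, against 12.7% and 6.99%, with medians of -0.11 and 0.10. Limma called 0 members at an adjusted p under 0.05, with 1 of 55 under an unadjusted p of 0.05, and 0.116% and 0.00964% of genes rose and fell. Sdhc and Ndufaf4 were higher and Ndufa12 and Ndufaf6 lower without overlap, Ndufaf4 at 5.5 and 8.83 FPKM in the control and 14 and 18.2 with FK866 (1.08, SE 0.51, adjusted p = 0.875). Ndufaf4 was thus higher with FK866 at both stages under both names, and passed the test only at the 4-cell stage by the headers.

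NMN on top of FK866 at the 4-cell stage gave no member past the test under either name. By the headers, with 1 library on each side, 14 of 49 members were more than 2-fold higher and 11 lower, against 25% and 34.7% of 8929 genes, with medians of 0.12 and -0.29, and limma called 0 members, with 4 under an unadjusted p of 0.05, while 1.27% and 2.12% of genes rose and fell. Under the names in the tables, 2 of 53 were higher and 6 lower, against 14.8% and 11.5% of 7754 genes, with medians of -0.22 and 0.02, and limma called 0, with 2 under an unadjusted p of 0.05. By the headers Sdhb was at 0 and 12.4 FPKM and Ndufc2 at 0 and 10.4, and by the tables Ndufaf6 was at 0.971 and 5.62 with FK866 and 16.4 and 22.5 with NMN. Single libraries give these header values no replicate of their own.

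With the columns named by the tables, TSA and Sirt1 knockdown at the late 2-cell stage each rest on 1 library. For TSA, 10 of 47 members were more than 2-fold higher and 11 lower than in the control, against 30.1% and 29.7% of 9420 genes, with medians of -0.25 and 0.07. For Sirt1, 9 of 50 were higher and 10 lower, against 16.4% and 28.2% of 8622 genes, with medians of -0.37 and -0.21. Limma called 0 members in either, with 6 and 5 under an unadjusted p of 0.05. Cox6b2 was at 218 and 115 FPKM in these libraries, on either side of 169.9 and 130.0 in the control, with log2 changes of 0.55 and -0.36 (SE 0.58 each, adjusted p = 0.688 and 1).

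Other genes of the pathway were taken from a list of assembly factors and cytochrome c, with 20 of 40 among the rows, and a list of genes for mitochondrial DNA and its transcription, with 8 of 19. Between early and late 2-cell control, 2 of the 17 tested in limma from the first list rose, Coa6 and Tmem70, and 2 fell, Surf1 and Sdhaf3, where 8.85% of all genes rose and 7.9% fell. FK866 over control gave 0 calls at the late 2-cell stage, where 0.26% of all genes rose and 0.116% fell. FK866+NMN over FK866 gave 1 fall, Coa7, where 2.09% of all genes fell. Of these 17, 2 rose and 1 fell in the TSA-headed column, against 4.26% and 8.4% of all genes. Of the 8 genes of the second list, 1 rose between early and late 2-cell control, where 8.85% of all genes did, Tfb2m, a transcription factor of mitochondrial DNA, at 2.15 on the log2 scale (SE 0.48, adjusted p = 0.0111). Tmem70, an assembly factor of the ATP synthase, was at 43.2 FPKM per library in the late 2-cell control and at 176, 142 and 158 in the columns headed TSA, Sirt1 and 4-cell control, and rose by 2.00 in the first (SE 0.51, adjusted p = 0.0287). Polrmt, the mitochondrial RNA polymerase, was at 1.5 in the control and at 17.2, 20.5 and 16.6, and rose in each (2.86, 3.10 and 2.79, SE 0.72, adjusted p = 0.0265, 0.0234 and 0.0423). The 20 genes of the first list summed to 327 FPKM per library in the control and to 431, 427 and 440 in these columns. The 8 of the second list summed to 119 and to 193, 175 and 179. These sums were not tested. Some genes of the lists, such as Atpaf1 and Gabpb1, were not higher there. Atpaf1, also an assembly factor of the ATP synthase, was at 4.29 in the control and at 3.96, 2.41 and 3.25. Its values could not be separated into libraries, so that it did not enter limma. Gabpb1, a subunit of GABP, was at 24.4 in the control and at 10.1, 11 and 18.2 (adjusted p = 0.119, 0.194 and 0.712). In the library headed 4-cell FK866, Tmem70 and Polrmt had no read. Nrf1, the factor behind the first motif, was at 33.3 in the column headed 4-cell control and 4.22 in that library (-2.72, SE 0.63, adjusted p = 0.0136). Sdhaf4, an assembly factor of complex II, was at 18.4 in the late 2-cell control and without a read in the columns headed TSA and Sirt1 (adjusted p = 0.0133 and 0.0176).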

How the data were processed

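RNA-seq of 18 mouse embryo samples in 9 groups was used, and 24 CUT&Tag samples were not. The authors deposited FPKM values, 1 column per group, made with FastQC, Trim Galore, HISAT2 on mm10 and featureCounts, and their notes name CASAVA 1.4. How reads shared with pseudogenes, which many subunit genes have, were counted is not given in the sources used here. Of 15748 rows, an incomplete last row and repeated symbols were dropped, leaving 15737 genes, of which 15361 had a GENCODE M21 (GRCm38) exon length. FPKM times that length was split into whole reads of 1 or 2 libraries for 96.92% to 97.79% of values above 0, and columns of 2 libraries were divided by 2.

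Main values are log2 ratios of FPKM + 1 per library (genes at 1 FPKM or more in either column), counted past 2-fold, without a test. The test was limma 3.58.1 (R 4.3.3, trended prior) on log2(FPKM + 1) of 16 libraries, with Benjamini-Hochberg adjustment over 10370 genes at 1 FPKM or more in at least 2 libraries, and 7 residual degrees of freedom. Columns of 1 library were assumed to vary like the rest. The code was tested on simulated data, with a spread between libraries that was set and not taken from the data. For late 2-cell FK866 over control, limma called 29% of 100 genes raised 4-fold and 22% of 100 genes lowered 4-fold. It called 4 of 8351 unchanged genes. A level of 0 carries a limit of 3 reads over the group, for counting error only.

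Named members are those of a core catalytic and a tissue-form list, the 5 highest, and those past 2-fold without overlap of libraries. Other members, where named, were chosen after their values were seen. Members and lists were chosen with earlier results of these data known. Refits without 1 library, the stage contrast and the motifs were added after the data were seen. Settings tried were the column names, pseudocount, minimum, centring and libraries left out. The values of 1 member enter all counts and sums but are not reported here.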

Additional observations from a re-analysis of the deposited data

Results flagged for a closer look

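The difference between the FK866 effects at the 4-cell and the late 2-cell stage was tested in the same limma model, as a contrast added after the data were seen. With the columns named by the headers, 3 members passed an adjusted p under 0.05, against 4.73% of genes upwards and 3.08% downwards. The log2 effect of FK866 was 4.98 higher at the 4-cell stage for Cox6b2 (SE 0.75, adjusted p = 0.00542), which was lower with FK866 at the late 2-cell stage, and the call stayed in all 14 refits without 1 library, none of which left out the single library headed 4-cell FK866, where Cox6b2 was at 218 FPKM, so that dependence on that library was not tested. It was -5.73 for Ndufaf5 (SE 1.35, adjusted p = 0.031) and -4.41 for Ndufaf6 (SE 0.95, adjusted p = 0.0224), both complex I assembly factors without a read in the single library headed 4-cell FK866, and these calls were lost in 5 and in 1 of the refits. With the columns named by the tables, 0 members and 0% of genes passed, with 2 members and 786 genes under an unadjusted p of 0.05. Under those names the values were -0.06, -0.01 and -1.52, so that the 3 differences rest on the headers.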

How the results depend on the processing

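The median log2 fold change of the members was computed for 8 comparisons under each alternative. Of 95 alternative values, 73 were labelled the same, 18 as moved and 4 as reversed in sign. The label was set by the spread between libraries. 4-cell FK866+NMN over FK866, with 1 library on each side, has no such spread and was judged by a fixed limit. Named by the tables, the median turned to -0.25 for late 2-cell TSA, to -0.37 for late 2-cell Sirt1 and to -0.22 for 4-cell FK866+NMN over FK866, and became 0.96 for 4-cell over late 2-cell control and -0.11 for 4-cell FK866. Centred on the median of all genes it was 1.4 for TSA, 1.30 for Sirt1, -1.40 for 4-cell FK866 and 0.41 for 4-cell FK866+NMN. A pseudocount of 5 gave 0.59 for Sirt1 and 0.36 for 4-cell over late 2-cell control, columns as deposited gave -1.92 for 4-cell FK866, and 4-cell FK866+NMN over FK866 was -0.14 with a minimum of 5 FPKM, 0 without a filter and 0 in limma. Leaving out 1 library gave -0.15 to 0.43 for late over early 2-cell, -0.54 to -0.20 for FK866, -1.0 to 0.050 for FK866+NMN over FK866, 0.83 to 1.23 for TSA, 0.76 to 1.35 for Sirt1, 0.39 to 0.82 for 4-cell over late 2-cell control and -1.28 to -0.85 for 4-cell FK866, and the first turned sign without library B of the late 2-cell control. Over settings that kept every library, limma and the tables included, 5 to 19 members were higher and 3 to 13 lower for late over early 2-cell. These ranges were 0 to 7 and 0 to 11 for FK866, and 0 to 8 and 0 to 18 for FK866+NMN over FK866. They were 6 to 34 and 2 to 11 for TSA and 2 to 31 and 2 to 10 for Sirt1. For 4-cell over late 2-cell control they were 2 to 25 and 1 to 6, and for 4-cell FK866 3 to 8 and 2 to 40. For 4-cell FK866+NMN over FK866 they were 0 to 17 and 0 to 12. Leaving out 1 library went past some of these ranges, with up to 17 lower for late over early 2-cell. It gave up to 10 higher and 17 lower for FK866, and up to 12 higher and 23 lower for FK866+NMN over FK866. The cause of these shifts was not tested. No paired analysis was possible because the separated libraries carry no replicate number. With at most 2 libraries a column, a member that did not pass cannot be called unchanged.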
